A study of Mus musculus with 6 samples.

Results

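The genes described are 38 genes of the striated muscle sarcomere, of calcium handling in muscle fibres and of muscle energy metabolism, measured in mouse calvaria, the roof of the skull. They were listed by name, and each was represented by the probe set with the highest mean log2(signal + 16) over the 5 distinct arrays among probe sets annotated with exactly 1 gene symbol. Of the 38 genes, all had such a probe set and 37 passed the filter on dim signals (a mean signal of about 61.9), out of 12859 genes that passed it in all. The exception was Mybph, which encodes myosin binding protein H.

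RNA came from cryosections of parietal bones, taken at postnatal day 10, and was hybridised to an Affymetrix mouse array. The 13del-tg animals carried a Col10a1-13del transgene and had bone overgrowth, and the controls were their wild-type littermates. The labels name neither the promoter of the transgene nor the founder line. Each genotype had 3 labelled replicates, but the values deposited as 13del-tg 1 and control 1 were identical for 45101 of 45101 probe sets, so that array (the shared array) is shown apart and the comparison is of 13del-tg 2 and 3 with controls 2 and 3 (n = 2 each). Nothing in the labels says how much soft tissue was left on the bones.

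Striated muscle contracts when thin filaments of actin slide along thick filaments of myosin inside the sarcomere, whose borders are the Z-discs. Troponin and tropomyosin on the thin filament hold contraction back until calcium is released from the sarcoplasmic reticulum, and creatine kinase, myoglobin and glycogen breakdown keep the fibre supplied with energy. Fast and slow fibres use different isoforms of troponin, myosin light chains and calcium pumps. Bone itself has no sarcomeres.

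The labelled tissue and the labelled genotype were checked against their own markers. Col1a1, the main collagen chain of bone, had signals of 46123 and 48236 in 13del-tg 2 and 3, against 42618 and 46275 in controls 2 and 3, and Ibsp, which encodes bone sialoprotein, had 13287 and 13808 in 13del-tg, against 11564 and 9903 in the controls. Col10a1 had 15689 and 11584 in 13del-tg, against 149.8 and 158.2 in the controls, and 152.2 on the shared array, which is deposited under both labels and was at the level of the controls for this gene. The trimmed mean of the deposited signals, leaving out 2% at each end, was 500.003 on every array.

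The muscle genes stood at high signals on 4 of the 5 distinct arrays and were low on control 3. Control 3 had the lowest signal of the 4 compared arrays for 37 of 37 measured members, which was so for 24.0% of all genes. Its signal was below that of control 2, its fellow wild type, by a median of 9.21-fold (range 1.65-fold to 16.9-fold). On the log2 scale this gap between the controls had a median of 3.10 over the members and of -0.018 over all genes. More than 4-fold lower on control 3 than on control 2 were 33 of 37 members and 1.35% of all genes, and 28 members were among the 100 genes with the widest such gap.

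All 37 members had a higher mean in 13del-tg than in the controls, as 41.2% of all genes did, and none passed the test. The median log2 difference over the members was 1.70 (range 0.57 to 2.12), against -0.074 over all genes. By limma with Benjamini-Hochberg adjustment over all 12859 genes, 0 members were higher and 0 lower at an adjusted p under 0.05, where 0.0156% of all genes were higher and 0.0467% lower, and the members' adjusted p ran from 0.715 to 0.784. At an unadjusted p under 0.05, 3 members (Tpm1, Myoz1 and Pvalb) were higher and 0 lower, against 1.49% and 5.31% of all genes. With arrays centred on their medians 26 members were past that p, all higher, against 437 genes higher and 303 lower of 12859. With the shared array added as 13del-tg 22 members were past it, all higher, against 362 genes higher and 534 lower. With the shared array added as a control 0 members were past it, against 150 genes higher and 648 lower. Without the intensity trend 0 were, against 149 and 781. With quantile normalization 1 was, against 233 and 513. With the mean of a gene's probe sets 2 were, against 167 and 620 of 12138. In each of these fits 0 members passed the adjusted p. The standard errors of the members had a median of 0.88, against 0.26 over all genes. Both 13del-tg arrays lay above both controls for 11 members (13.4% of all genes) and below both for 0 (26.3% of all genes). An exact permutation test of any single gene cannot go below p = 0.333 with 2 arrays against 2.

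The difference rested on control 3. With control 2 as the lone wild type, the median log2 difference of the members was 0.12, against -0.063 over all genes. Of the members 27 were positive and 10 negative. With control 3 as the lone wild type the median was 3.28, against -0.094 over all genes, and all 37 were positive. Each of these fits had 1 residual degree of freedom and assumed that the lone control varies as the 13del-tg arrays do. Calls from them are therefore not read here. Set against control 2, both 13del-tg arrays were above it for 11 members, both were below it for 5, and it lay between them for 21. The same counts were not made over all genes, so they describe the members alone. In whole bone, fewer muscle cells and less RNA per muscle cell cannot be told apart.

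**Figure D1:**
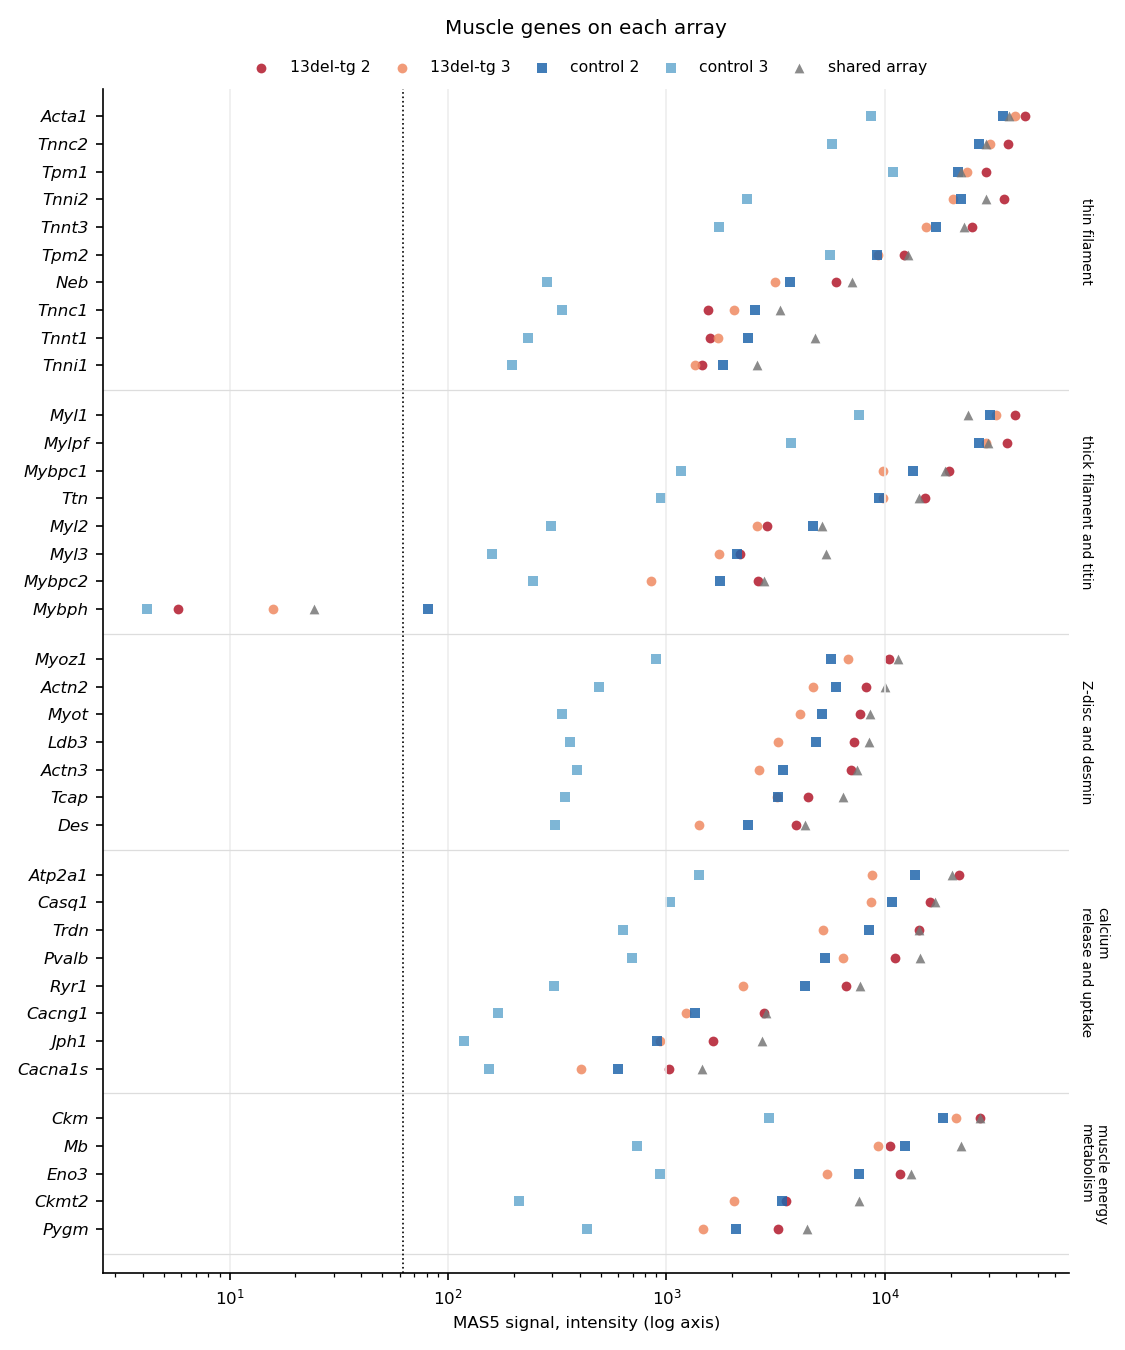
Signal of each of the 38 genes (rows, by role and then by mean) on the 5 distinct arrays, on a log axis of MAS5 intensity; circles are 13del-tg, squares controls and triangles the shared array, and the dotted line marks the filter at 61.9. Control 3 is the lowest point for all 37 genes that passed the filter.

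The thin filament was represented by 10 genes. Acta1, the actin of skeletal muscle, had signals of 43939 and 39338 in 13del-tg 2 and 3, against 34653 and 8600.3 in controls 2 and 3, and 36998 on the shared array (13del-tg 41639 ± 3254, control 21626 ± 18422, SD, n = 2 each). Its log2 difference was 1.27 (SE 0.56). The groups did not overlap, but control 2 was far nearer to the 13del-tg arrays than to control 3. Neb, nebulin, which runs along the thin filament, had 6003 and 3152 in 13del-tg, against 3659.7 and 282.5 in the controls, and 7039 on the shared array, a difference of 2.06 (SE 1.01) with overlapping groups.

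The troponin complex has a calcium-binding subunit (C), an inhibitory subunit (I) and a tropomyosin-binding subunit (T), each with a fast and a slow gene. Tnnc2, the fast troponin C, had 36800.2 and 30436 in 13del-tg, against 26979 and 5744 in the controls (difference 1.42, SE 0.62). Tnnc1, the troponin C of slow and heart muscle, had 1555 and 2042 in 13del-tg, against 2537 and 332.5 in the controls (difference 0.93, SE 0.80). Both 13del-tg arrays were above control 2 for the fast gene and below it for the slow gene.

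The other troponins had the same arrangement for their slow genes. Tnni1, the slow troponin I, had 1452 and 1351 in 13del-tg, against 1808 and 196.3 in the controls, and Tnnt1, the slow troponin T, had 1586 and 1721, against 2356 and 233.4. Control 2 was the highest of the 4 compared arrays for both, and the differences were 1.19 (SE 0.85) and 1.12 (SE 0.89). Tnni2, the fast troponin I, had 35261 and 20508 in 13del-tg, against 22261 and 2325 in the controls, a difference of 1.90 (SE 0.91). Tnnt3, the fast troponin T, had 25089 and 15364 in 13del-tg, against 17138 and 1740.4 in the controls, a difference of 1.84 (SE 0.91). For these fast genes control 2 lay between the 13del-tg arrays.

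On the probe sets used, the tropomyosins varied least between the controls. Tpm1, alpha-tropomyosin, had 29067 and 23806 in 13del-tg, against 21553 and 10864 in the controls (difference 0.78, SE 0.32), and Tpm2, beta-tropomyosin, had 12235 and 9308, against 9209 and 5593 (difference 0.57, SE 0.27). Control 2 exceeded control 3 by 1.98-fold and 1.65-fold for these genes, the smallest such ratios among the members. Both genes are also transcribed outside striated muscle, with other exons and promoters, and a probe set can read several of their transcripts. Another Tpm1 probe set, with a mean log2 signal of 13.3, had a difference of 0.19 and was higher on control 3 than on control 2 by 0.25 on the log2 scale. Dimmer Tpm1 probe sets had control 2 minus control 3 at 1.75 and -0.37. The other Tpm2 probe sets did not have the small gap. Their log2 gaps between controls 2 and 3 were 2.65, 1.55 and 2.66, with differences of 1.27, 0.99 and 1.62.

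Promoter sequence is shown for 5 of these genes as a description, and a part of it in the arrays' values was not tested. They are Acta1, Mylpf (the fast regulatory myosin light chain), Tnnc2 and Tnnc1 as a fast and slow pair, and Tpm1. Tpm1 is shown for its small gap on the probe set used. The stretches are the 250 bases before the annotated start in RefSeq, build GRCm38.p6: Acta1 at chr8:123894776-123895025, minus strand, Mylpf at chr7:127211358-127211607, plus strand, Tnnc2 at chr2:164779735-164779984, minus strand, Tnnc1 at chr14:31208062-31208311, plus strand and Tpm1 at chr9:67049214-67049463, minus strand. Capitals mark matches on either strand to the E-box CANNTG, bound by MyoD-type factors, to the CArG box, bound by serum response factor, to the MEF2 motif and to the MCAT motif CATTCC, bound by TEAD factors.
Acta1 promoter: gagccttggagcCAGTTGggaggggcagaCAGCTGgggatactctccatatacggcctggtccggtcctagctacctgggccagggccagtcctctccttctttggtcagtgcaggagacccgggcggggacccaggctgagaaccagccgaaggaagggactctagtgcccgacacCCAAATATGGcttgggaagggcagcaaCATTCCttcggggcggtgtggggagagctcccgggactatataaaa
Mylpf promoter: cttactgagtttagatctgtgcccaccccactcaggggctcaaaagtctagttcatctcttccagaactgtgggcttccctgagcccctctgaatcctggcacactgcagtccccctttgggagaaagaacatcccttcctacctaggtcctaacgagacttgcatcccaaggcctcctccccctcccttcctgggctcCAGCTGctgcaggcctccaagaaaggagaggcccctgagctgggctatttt
Tnnc2 promoter: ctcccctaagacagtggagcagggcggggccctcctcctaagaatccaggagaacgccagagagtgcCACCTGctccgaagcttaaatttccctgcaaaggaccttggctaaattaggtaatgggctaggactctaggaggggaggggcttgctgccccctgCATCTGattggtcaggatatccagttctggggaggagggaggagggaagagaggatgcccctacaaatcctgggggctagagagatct
Tnnc1 promoter: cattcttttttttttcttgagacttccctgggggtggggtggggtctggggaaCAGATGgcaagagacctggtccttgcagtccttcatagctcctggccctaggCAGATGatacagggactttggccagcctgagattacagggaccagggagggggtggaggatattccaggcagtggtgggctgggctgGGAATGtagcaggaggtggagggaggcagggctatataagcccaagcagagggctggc
Tpm1 promoter: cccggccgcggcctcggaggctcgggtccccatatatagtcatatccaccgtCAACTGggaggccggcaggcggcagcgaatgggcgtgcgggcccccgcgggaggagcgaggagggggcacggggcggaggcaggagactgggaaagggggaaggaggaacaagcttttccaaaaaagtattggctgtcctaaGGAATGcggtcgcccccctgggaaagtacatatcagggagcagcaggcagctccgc

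Promoters were given for 27 of the 37 measured members. The E-box form CAGCTG, which is contained in CANNTG, was found in these 250 bases in 15 of the 27 members (55.6%), against 14.7% of all 27025 genes with a promoter. For CANNTG of any form these numbers were 25 of 27 (92.6%) and 69.3%. MCAT was found in 8 of 27 (29.6%), against 14.4% of all genes, the CArG box in 3 (11.1%), against 1.62%, and MEF2 in 2 (7.41%), against 3.42%. Acta1 had 2 E-boxes, of which 1 was CAGCTG, 1 CArG box and 1 MCAT motif, and Mylpf had 1 E-box, a CAGCTG. A match is a run of letters and not a measured site, and none of these was compared with the arrays.

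The thick filament group held the myosin light chains, the myosin binding proteins and titin. Myl1, the fast essential light chain, had 39332 and 32226 in 13del-tg, against 30330.1 and 7609.6 in the controls (difference 1.23, SE 0.56), and Mylpf had 36136 and 29165, against 26929.5 and 3732 (difference 1.69, SE 0.78). Both were above control 2 on both 13del-tg arrays. Myl1 was the member whose signal on the shared array, 23949, was below that of control 2.

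The slow light chains had a 13del-tg mean below control 2, as the slow troponins did. Myl2, the regulatory light chain of slow and ventricular muscle, had 2893 and 2598 in 13del-tg, against 4706 and 296.0 in the controls (difference 1.18, SE 1.06). Myl3, the essential light chain of the same muscles, had 2167 and 1739 in 13del-tg, against 2112 and 159.1 in the controls (difference 1.68, SE 0.99). Against control 2 alone Myl2 had the lowest value of all members, -0.78, and Myl3 had -0.12.

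Titin, the giant protein that spans from Z-disc to M-line, had 15258 and 9834 in 13del-tg, against 9391 and 941.3 in the controls, and 14376 on the shared array. Its gene, Ttn, had a difference of 2.03 (SE 0.91) and groups that did not overlap. Mybpc1, the slow form of myosin binding protein C, had 19708 and 9796 in 13del-tg, against 13408 and 1168 in the controls (difference 1.80, SE 0.99). Mybpc2, the fast form, had 2626 and 846.6, against 1756 and 243.7 (difference 1.15, SE 0.88). For Mybpc2 the 13del-tg arrays themselves differed 3.10-fold, the widest such ratio among the members. Mybph had 5.8 and 15.8 in 13del-tg, against 80.6 and 4.2 in the controls, and 24.4 on the shared array; these signals are too dim for a comparison.

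Z-disc genes anchor and align the filaments, and all 7 passed the filter. Myoz1, calsarcin-2 of fast fibres, had 10463 and 6788 in 13del-tg, against 5648 and 892.9 in the controls, with a difference of 1.90 (SE 0.74) and no overlap. It was 1 of the members past an unadjusted p of 0.05. Actn2, alpha-actinin-2, had 8237 and 4691 in 13del-tg, against 5943 and 491.9 in the controls (difference 1.84, SE 0.99), and Actn3, the alpha-actinin of fast fibres, had 7023 and 2657, against 3433 and 389.9 (difference 1.87, SE 0.92). Control 2 lay between the 13del-tg arrays for both actinins.

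Myot, myotilin, had 7721 and 4085 in 13del-tg, against 5160.5 and 332.5 in the controls, the difference being 2.07 (SE 1.08). Ldb3, the Z-disc protein ZASP, had 7242 and 3252 in 13del-tg, against 4819 and 361.2 in the controls (difference 1.85, SE 1.05). Tcap, telethonin, which caps titin at the Z-disc, had 4446 and 3202, against 3247 and 344.9 (difference 1.80, SE 0.88). Des, desmin, the intermediate filament that ties Z-discs together, had 3918 and 1405 in 13del-tg, against 2371 and 308.5 in the controls (difference 1.43, SE 0.88). Its groups overlapped, as did those of the other Z-disc genes apart from Myoz1.

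Of the role groups, calcium handling genes differed most between the 13del-tg arrays, with 13del-tg 2 above 13del-tg 3 by a median of 1.24 on the log2 scale, against 0.032 over all genes. Ryr1, the calcium release channel, had 6628 and 2239 in 13del-tg, against 4304 and 305.1 in the controls (difference 1.72, SE 1.10). Cacna1s, the voltage sensor that triggers it, had 1024 and 406.1, against 600.6 and 154.3 (difference 1.03, SE 0.65), and Cacng1, a subunit of the same channel, had 2793 and 1223, against 1344 and 169.1 (difference 1.89, SE 0.85). In all 3 genes control 2 lay between the 13del-tg arrays.

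Atp2a1, the fast calcium pump SERCA1, had 21902 and 8688 in 13del-tg, against 13757 and 1406 in the controls (difference 1.64, SE 0.96). Casq1, calsequestrin-1, which stores calcium, had 16097 and 8652, against 10767 and 1035 (difference 1.81, SE 0.94), and Trdn, triadin, which links it to the release channel, had 14306 and 5204, against 8473 and 633.7 (difference 1.88, SE 1.08). Casq1 followed the members' median pattern over the 5 arrays most closely, with a root mean square distance of 0.082 on the log2 scale. Jph1, junctophilin-1, which holds the membranes of the triad together, had 1632 and 930.0 in 13del-tg, against 906.3 and 118.6 in the controls (difference 1.83, SE 0.80). Pvalb, parvalbumin, the soluble calcium buffer of fast fibres, had 11097 and 6442, against 5326 and 697.2, with the widest difference of the members, 2.12 (SE 0.82, limma adjusted p = 0.715). For Jph1 and Pvalb both 13del-tg arrays were above both controls.

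Among the metabolic genes, Ckm, the creatine kinase of muscle cytosol, had 27258 and 21097 in 13del-tg, against 18368 and 2958 in the controls, and 27182 on the shared array. The difference was 1.70 (SE 0.73) without overlap. Ckmt2, the creatine kinase of sarcomeric mitochondria, had 3529.7 and 2032 in 13del-tg, against 3384 and 210.5 in the controls (difference 1.62, SE 1.08). Mb, myoglobin, the oxygen store of oxidative fibres, had 10596 and 9274 in 13del-tg, against 12371 and 730.0 in the controls (difference 1.71, SE 1.10), and 22277 on the shared array. Mb had the widest gap between the controls, 16.9-fold, and both 13del-tg arrays were below control 2.

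The remaining metabolic genes serve glycogen and glucose use. Pygm, muscle glycogen phosphorylase, had 3226 and 1468 in 13del-tg, against 2076 and 434.5 in the controls (difference 1.18, SE 0.69). Eno3, the muscle enolase, had 11772 and 5460.3, against 7598 and 936.4 (difference 1.58, SE 0.87). In both, control 2 lay between the 13del-tg arrays.

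**Figure D2:**
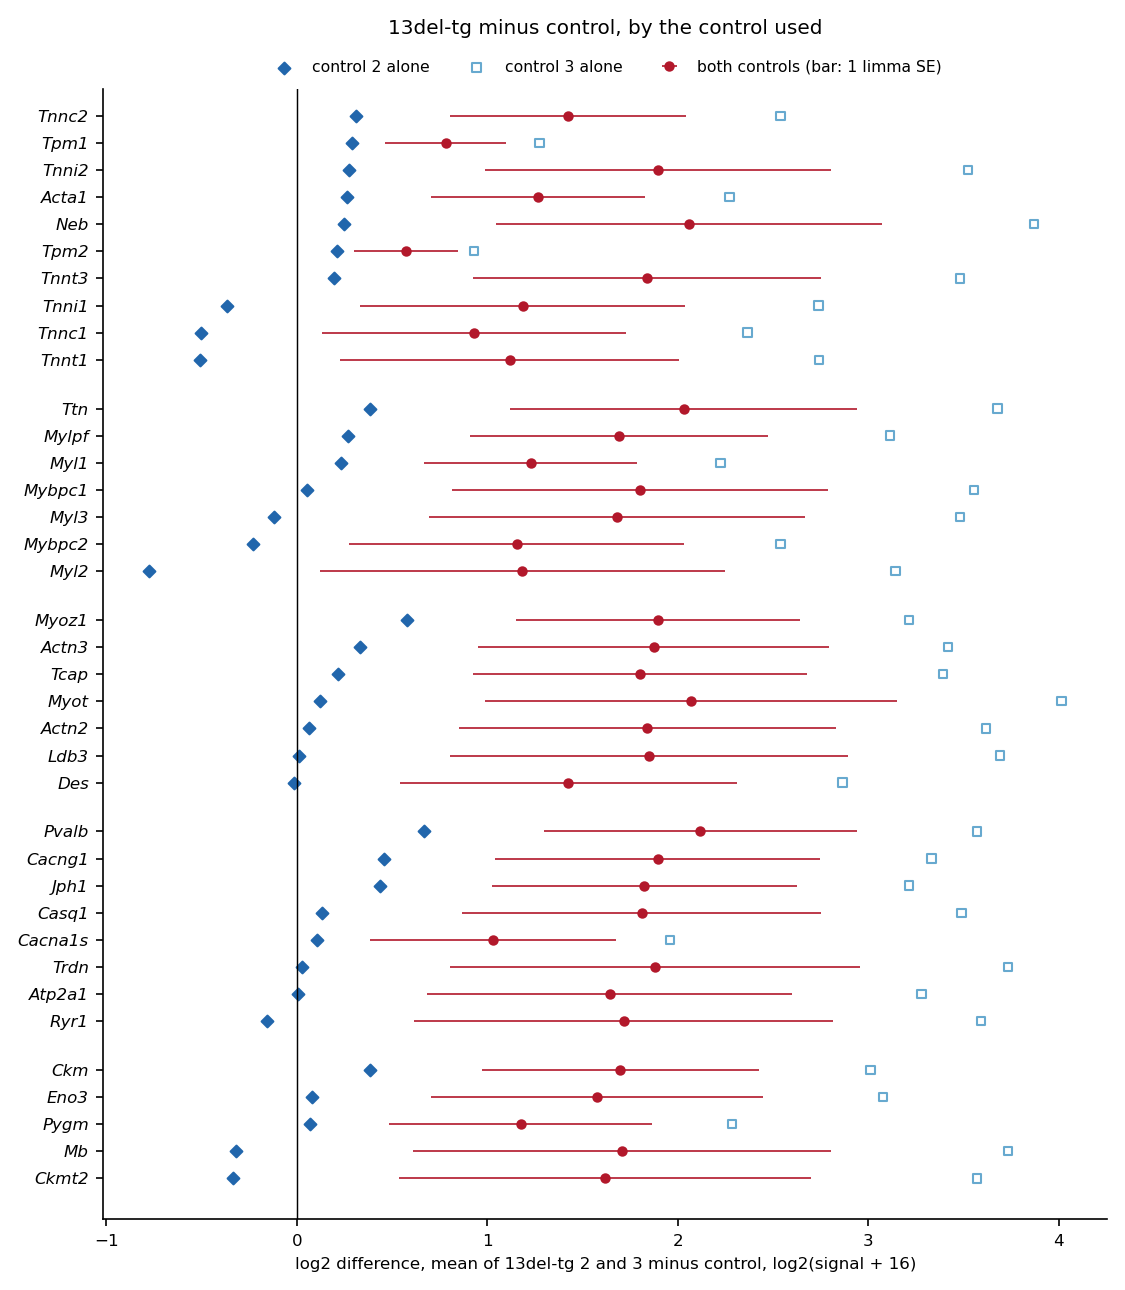
Log2 difference of each measured member, as the mean of 13del-tg 2 and 3 minus both controls (red circles, bars 1 limma SE), minus control 2 alone (filled diamonds) and minus control 3 alone (open squares), on the log2(signal + 16) scale. Against control 2 the members run from -0.78 to 0.67, and against control 3 from 0.93 to 4.01.

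Within the muscle genes, most slow and most fast fibre genes lay on different sides of control 2. The 5 listed slow fibre members (Tnnc1, Tnni1, Tnnt1, Myl2 and Myl3) all had a lower mean in 13del-tg than in control 2, with a median log2 difference of -0.51. Mybpc1, the slow myosin binding protein C, was in neither fibre list and had 0.05, so with it 5 of 6 slow genes were lower. Of the 11 fast fibre members (Tnnc2, Tnni2, Tnnt3, Myl1, Mylpf, Mybpc2, Actn3, Atp2a1, Casq1, Pvalb and Myoz1), 10 had a higher mean and Mybpc2 a lower, with a median of 0.27. Taken array by array, the fast median was 0.58 and the slow median -0.57 on 13del-tg 2, and the fast median was -0.12 and the slow median -0.42 on 13del-tg 3. On control 3 they were -2.91 and -3.25, and on the shared array 0.57 and 0.51. The distance between the fast and the slow median was thus 1.15 on 13del-tg 2, 0.30 on 13del-tg 3 and 0.34 on control 3, so 13del-tg 3 did not stand further from control 2 in this respect than control 3 did, and no test was made of it. Ckmt2 and Mb, of oxidative fibres, were also lower than control 2 on average, by -0.34 and -0.32. With quantile normalization 8 of the 11 fast members were higher (median 0.047), and with arrays centred on their medians the fast median on 13del-tg 3 was 0.0066 in place of -0.12, while the 5 slow members were lower under both.

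**Figure D3:**
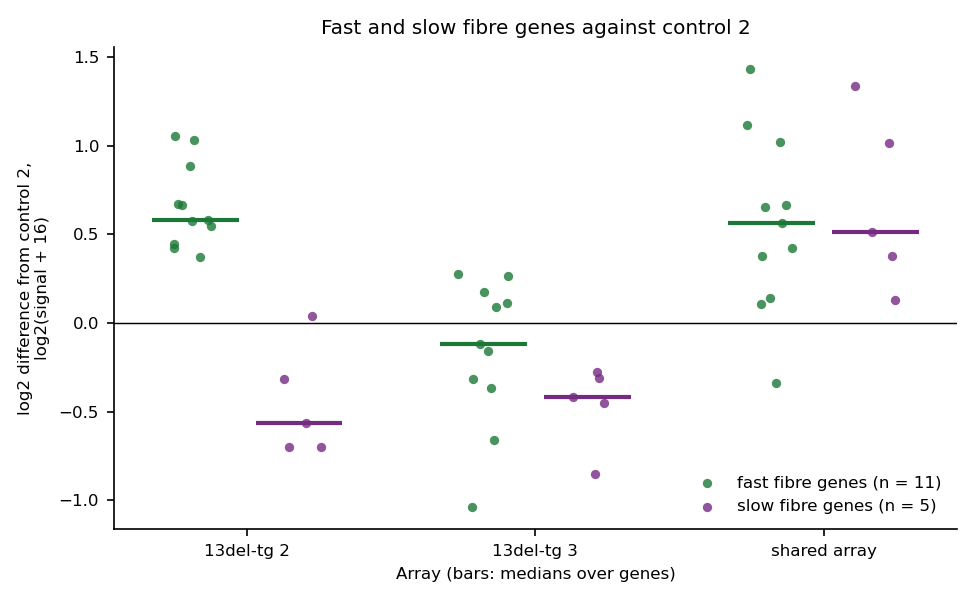
Log2 difference from control 2 of the 11 fast fibre genes (green) and 5 slow fibre genes (purple) on 13del-tg 2, 13del-tg 3 and the shared array, on the log2(signal + 16) scale; each point is a gene and each bar a median over genes. On 13del-tg 2 the medians are 0.58 and -0.57, and on the shared array 0.57 and 0.51.

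Arrays of 1 genotype also differed. 13del-tg 2 was above 13del-tg 3 for 35 of 37 members (53.2% of all genes), by a median of 1.72-fold, the exceptions being Tnnc1 and Tnnt1. 13del-tg 2 had the highest signal of the 4 compared arrays for 32 members (20.9% of all genes) and control 2 for the other 5, which were Tnnc1, Tnni1, Tnnt1, Myl2 and Mb. The shared array, which carries both labels, was above both controls for 36 of 37 members (34.5% of all genes) and above all 4 compared arrays for 26. Its Col10a1 signal of 152.2 was at the level of the controls, and its signal of 24.2 for Snap25, a synapse gene, at that of 13del-tg. Its members lay above control 2 by a median of 0.74 on the log2 scale, against -0.026 over all genes. The summed signal of 8 osteoblast genes was 101568 on the shared array, below its range of 140976 to 179898 on the other 4. That was not particular to osteoblast genes. The summed signal of 15 genes that most cells express was 112598 there, against 138010 to 157533 on the other 4. The highest signal of any probe set was 37204.9 there, against 50981.7 to 63206.8.

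Most other probe sets of the members behaved alike. Of 37 members 14 had several probe sets, and 26 of these 30 further probe sets, of 13 genes, passed the filter. A positive difference was found for all but 1 of the 26, a dim Des probe set at -0.42, and 23 were lowest on control 3.

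Most muscle genes outside the list were also lowest on control 3 among the 4 compared arrays. Of 28 measured genes from a list of other sarcomere and triad genes, 27 had a positive difference (median 1.44), 0 passed the test, and control 3 was lowest for 27. Smpx, a small striated muscle protein, had 7006 and 5367 in 13del-tg, against 4907 and 424.8 in the controls, and Srl, sarcalumenin of the sarcoplasmic reticulum, had 9166 and 6133, against 7488 and 798.7. Fbxo32, the ubiquitin ligase atrogin-1, was the gene with a negative difference, at -0.11 (SE 0.32), and is named here after its value was seen. Of 12 other muscle metabolism genes all were positive (median 1.37) and lowest on control 3, among them Fabp3, a fatty acid binding protein, with 10039 and 6490.3 in 13del-tg, against 8278 and 1282 in the controls.

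Of 6 sarcomeric myosin heavy chains 5 were positive and 6 were lowest on control 3; the negative one, Myh4 of the fastest fibres, was dim at -0.10 (SE 0.79). Myh8, the perinatal heavy chain, had 20953 and 11394 in 13del-tg, against 10096 and 942.0 in the controls (difference 2.31, SE 0.95), and Myh7, the slow heavy chain, had 1689 and 1385, against 2361 and 132.0 (difference 1.38, SE 1.09). Myh7 was below control 2 on both 13del-tg arrays, as were the slow members Tnnc1, Tnni1, Tnnt1 and Myl2. The slow member Myl3 was not, being above control 2 on 13del-tg 2. Against control 2 alone, 4 of the 6 heavy chains had a lower 13del-tg mean, and these were not only slow. They were Myh7 at -0.62, Myh3 at -0.44, Myh2 at -0.18 and the dim Myh4 at -1.09. Myh1 had 0.23 and Myh8 0.61. Myh4 and Myh7 were picked after their values were seen.

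Of 9 measured regulatory and satellite cell genes, control 3 was lowest for 6. Myog, myogenin, which drives myoblasts to differentiate, had 1409 and 648.1 in 13del-tg, against 895.0 and 326.1 in the controls. The more widely expressed Mef2a had 6222 and 6087, against 6563 and 6217. Of 6 measured genes of the neuromuscular junction, 5 had a positive difference and control 3 was lowest for 4. Chrna1, the acetylcholine receptor alpha subunit, had 1815 and 646.9 in 13del-tg, against 828.7 and 107.2 in the controls.

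Counterparts of the members that most cells express were described in the same way. Of 15 such genes 7 had a positive and 8 a negative difference (median -0.0054), control 3 was lowest for 4, and both 13del-tg arrays were above both controls for 5. Vim, vimentin of mesenchymal cells, was among these 5, with 29140.2 and 28619 in 13del-tg, against 25945 and 21668 in the controls (difference 0.28, SE 0.17). Actg1, cytoplasmic gamma-actin, had 27173 and 25650.3 in 13del-tg, against 24975 and 26719 in the controls (difference 0.03, SE 0.16). Ckb, the creatine kinase of other tissues, had 12032 and 13327, against 10665 and 13998 (difference 0.05, SE 0.20). Actb, cytoplasmic beta-actin, had 27077 and 32569.9, against 24186 and 26779 (difference 0.22, SE 0.18). Control 3 was above control 2 for Actg1, Ckb and Actb, and below it for Vim.

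Of 9 heart genes 5 passed the filter, 3 with a positive and 2 with a negative difference, and control 3 was lowest for 3. The heart genes Myh6, Nppa, Nppb and Myl7 were below the filter, with signals from 4.1 to 50.0 in 13del-tg and from 5.1 to 75.5 in controls, whereas Actc1, an actin that developing skeletal muscle also makes, had 9783 and 4716 in 13del-tg, against 6713 and 721.8 in the controls. Myl4, the atrial and fetal light chain, had 1753 and 1934, against 1554.5 and 929.9, and the dimmer Tnnt2 had 174.9 and 120.5, against 234.6 and 26.7. Tnni3 and Mybpc3 had differences of -0.23 and -0.81. Of 6 measured smooth muscle genes all had a positive difference (median 0.21), and control 3 was lowest for 4. Their median gap between controls 2 and 3 was 0.23 on the log2 scale. Acta2 had 14801 and 11505 in 13del-tg, against 11267 and 9172 in the controls. Of 5 tendon genes 4 had a positive difference, and control 3 was lowest for 2. Fmod, fibromodulin, had 18680.4 and 16586.5 in 13del-tg, against 25162 and 20639 in the controls (difference -0.37, SE 0.18). Tnmd had 9438 and 9535 in 13del-tg, against 9545 and 6312 in the controls, and Thbs4, which muscle attachment sites also make, had 1280.2 and 601.7, against 747.4 and 102.3. Osteoblast genes had a median control gap of -0.13, with control 3 lowest for 1 of 8. The summed signal of the 8 osteoblast genes was 155909 and 179898 in 13del-tg, against 140976 and 157509 in the controls.

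Erythroid genes did not follow the muscle genes. All 7 measured had a negative difference (median -2.32) and 0 passed the test, with a summed signal of 3338 and 4980 in 13del-tg, against 14633 and 17083 in the controls, so control 3 was not low for them. Of 6 adipocyte genes 1 passed the filter, Adipoq, with 1212 and 822.0 in 13del-tg, against 1712 and 1053 in the controls. Of 5 brain genes 4 had a negative difference (median -1.33). Snap25, of synapses, passed the test, with 18.5 and 33.4 in 13del-tg, against 462.1 and 733.0 in the controls, and 24.2 on the shared array. Mbp, of myelin, had 3525 and 980.1 in 13del-tg, against 1454 and 1588 in the controls. The part of any of these cell types in the members' values was not tested.

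**Figure D4:**
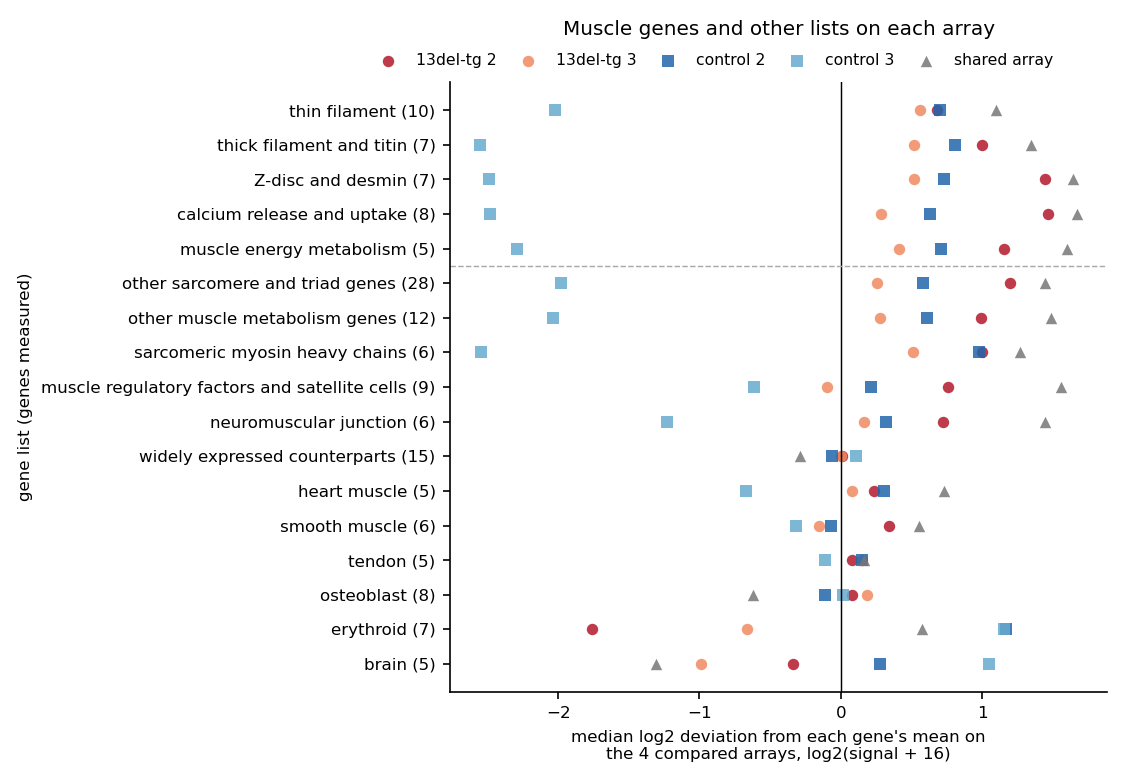
Median over genes of the log2 deviation from each gene's own mean on the 4 compared arrays, for the 5 role groups of the members (above the dashed line) and for other gene lists, with the number of genes measured in brackets. Control 3 lies between -2.55 and -2.02 in the role groups, and at 0.10 for the widely expressed counterparts.

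The genes outside the 38 whose pattern over the 5 distinct arrays was nearest to the members' median pattern were Ankrd23, Itgb1bp2, Actc1, Cox6a2, Dhrs7c, Bves, Pdlim5 and Myh2, in that order. Their root mean square distances ran from 0.11 to 0.15 on the log2 scale, against 0.082 to 1.02 among the members themselves. Itgb1bp2, melusin of striated muscle, had 6659 and 3485 in 13del-tg, against 4229.5 and 489.4 in the controls, and 8607 on the shared array. The members furthest from their own median pattern were Tpm2 at 1.02, Tpm1 at 0.98 and Myl1 at 0.74.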

How the data were processed

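The deposited values are intensities, 1 per probe set and sample on a linear scale, made with MAS5 per the submitters' processing notes; no version or setting is stated there. The deposited values have the same trimmed mean on every array. MAS5 subtracts background per array, so low signals are noisy. Detection calls and scan dates were not used here.

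Values were transformed as log2(signal + 16), with no further normalization, and a fold on this scale understates changes of dim genes. Control probe sets (64) were dropped. Of the other 45037 probe sets, 34945 had 1 symbol in the platform annotation, 932 had several (and named no gene) and 9160 were unnamed here; 34741 matched the reference gene table. Each gene was represented by its brightest probe set, and genes with a mean at or above the 40th percentile (log2 6.28) were kept.

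Differences, 13del-tg minus control, were fitted in R 4.3.3 by limma 3.58.1, using lmFit and then eBayes with an intensity trend, over all 12859 genes, two-sided, with 2 residual and 5.01 prior degrees of freedom. The code was tested on simulated data. The labels call the replicates biological, and the number of arrays limits the precision. The rule for naming was all members, up to 4 genes of each other list with the highest means, and the 8 other genes with the smallest root mean square distance from the members' median pattern; exceptions are stated where they occur. The members and lists were chosen with earlier results of these data known, and no list was tested as a set. Promoters are from RefSeq, GRCm38.p6, matched by symbol.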

Additional observations from a re-analysis of the deposited data

Results flagged for a closer look

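The array deposited under both genotypes was left out of the main comparison, and it carried a strong muscle signal. On it 36 of the 37 measured members were above both controls, as were 34.5% of all genes. Myl1 was the exception. Its Mb signal was 22277 and its Tnnt1 signal 4779, the highest of the 5 arrays for both genes.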

How the results depend on the processing

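The members' median difference stayed positive under all 15 alternatives, from 0.12 without control 3 to 3.28 without control 2, the ends of the range when 1 array was left out. Leaving out 1 array at a time gave 0 to 35 members called higher, 11 to 37 above both controls and 0 to 5 below, and over all genes 1 to 182 called higher and 0 to 50 lower. The upper ends came without control 2, except that 5 below both controls came without control 3, and without 13del-tg 3 the members above both controls were 32 and the calls over all genes 1 and 0. How many of all genes lay above or below both controls was not counted for these fits, so such counts describe the members alone. With a lone array in 1 genotype, groups without overlap come about more easily. The counts of 32 and 37 can therefore not be set against the 11 of the main comparison. Without control 3 the sign turned for 10 members. Leaving out each array in turn gave -0.51 to 2.37 for Tnnc1, -0.36 to 2.74 for Tnni1 and -0.51 to 2.74 for Tnnt1. It gave -0.78 to 3.14 for Myl2, -0.12 to 3.48 for Myl3, -0.23 to 2.54 for Mybpc2 and -0.014 to 2.87 for Des. For Ryr1 it gave -0.16 to 3.59, for Ckmt2 -0.34 to 3.57 and for Mb -0.32 to 3.73.

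Calls over all genes, 2 higher and 6 lower, became 1 and 1 with a pseudocount of 1, a 60th percentile filter or quantile normalization, 1 and 0 without a filter, without the trend or with the shared array as a control, 2 and 3 with a pseudocount of 64, 3 and 27 with arrays centred on their medians, and 0 and 7 with the shared array as 13del-tg. With centring, all genes had a median of 0.11 (against -0.074) and the members 1.88. The 11 members above both controls became 3 with quantile normalization and 7 with the mean of a gene's probe sets. With the shared array as a control they became 4. Those counts were not made over all genes, so they describe the members alone. The members' median was 0.95 with the shared array as a control and 1.93 with it as 13del-tg. Col10a1 on the shared array, at 152.2, was at the level of the controls (149.8 and 158.2, against 15689 and 11584 in 13del-tg). Snap25, at 24.2, was at the level of 13del-tg (18.5 and 33.4, against 462.1 and 733.0 in the controls). The genotype of that array is not settled here. With the replicate block, 36 members passed higher, as did 271 genes in all, with 338 lower; that fit has 1 residual degree of freedom and an infinite prior, so it did not use a gene's own spread. The replicate numbers do not pair animals in the labels, and the correlation over genes of the replicate differences in the 2 genotypes was 0.27. The fast and slow medians of the 13del-tg mean against control 2 were recomputed under 5 settings chosen after seeing the data and kept their signs. The fast median on 13del-tg 3 alone did not, going from -0.12 to 0.0066 with arrays centred on their medians. With 2 arrays per genotype the members' standard errors had a median of 0.88.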
